A study of Mus musculus with 8 samples.

Results

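The genes described here are 10 of the 37310 genes in the count tables: 4 Dppa genes, Dppa2, Dppa3, Dppa4 and Dppa5a, and Utf1, Tcl1, Zfp296, Fbxo15, Sall4 and Lin28a, genes whose expression in the mouse is strongest in embryonic stem (ES) cells, the early embryo and germ cells. They were chosen by name, found through their Ensembl gene identifiers, and followed across all 4 groups of libraries. Of the 10, 9 passed the filter on low counts and were tested, and Dppa3 did not.

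The study asked, in its title, how the RNA helicase eIF4A3 bears on ES cell identity. Polyadenylated RNA was sequenced in 8 libraries of mouse ES cells, in 4 groups of 2. In the J1 line, of strain 129S4/SvJae, the control carried both a control knockdown and a control expression construct (CtrlKD-CtrlOE). The second J1 group was labelled as depleted of eIF4A3 beside the control expression construct (eif4a3KD-CtrlOE), and the third as depleted of eIF4A3 and made to express Ccnb1 (eif4a3KD-ccnb1OE). The CCE line, of strain 129/Sv, gave libraries labelled as eIF4A3 knockdown with no expression construct named, and no control of that line was analysed here. The cells of every group, controls included, were grown without feeders in serum and LIF. They were transfected and then given lentivirus, with puromycin at 1 µg/mL for 2.5 days, and were harvested on day 4.5 after infection. Each line is 1 cultured line, and it is not stated that libraries of the same group came from separate cultures, so p-values measure only the spread between these libraries. eIF4A3 is a core protein of the exon junction complex, which is laid down on spliced mRNA, and cyclin B1, the product of Ccnb1, activates Cdk1 as cells enter mitosis.

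The gene counts per library ran from 3596615 to 8340023 in J1 and were 23965806 and 25573379 in CCE. Levels below are in counts per 1000000 gene counts of a library (CPM), and levels of different genes are compared only as CPM per kilobase of exon. Between libraries of the same group, counts varied 3.41 times as much as counting noise in control, 22.0 times as much in the labelled knockdown libraries and 1.88 times as much in the labelled Ccnb1 libraries. These are means over genes with more than 60 and at most 2000 counts summed over the group. The level of Eif4a3, the targeted gene, was 73.5 and 83.7 CPM in the control libraries, 75.7 and 37.5 CPM in the labelled knockdown libraries, 47.3 and 53.5 CPM in the labelled Ccnb1 libraries and 48.8 and 53.9 CPM in CCE. Neither labelled J1 group passed the test against control for Eif4a3 (adjusted p = 0.211 and 0.190), and 1 labelled knockdown library lay within the control range, so the groups are called by their labels throughout. Ccnb1 was at 135 and 129 CPM in the control libraries, 101 and 126 CPM in the labelled knockdown libraries and 136 and 130.5 CPM in the labelled Ccnb1 libraries, and did not pass the test between the last 2 groups (adjusted p = 0.128). Pou5f1, the defining ES cell factor, was at 935 to 1879 CPM in J1 and 866 and 930.3 CPM in CCE. Of 10 markers of fibroblasts, Col3a1, Postn and Dcn had no count in any J1 library, and Col1a2, Lum and S100a4 reached at most 0.341 CPM. Fn1 was at 597 to 816 CPM in J1, Vim at 96.6 to 162 CPM, Thy1 at 6.37 to 17.7 CPM and Col1a1 at 1.08 to 17.2 CPM.

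The 10 genes act at different steps of gene regulation. Dppa2 and Dppa4 are SAP-domain proteins that bind chromatin as a pair and keep developmental and early embryonic genes open to activation. Dppa3, also called Stella, is a maternal and germ cell factor that holds the methylation cofactor UHRF1 away from DNA. Dppa5a is a KH-domain RNA-binding protein, Utf1 a chromatin-bound regulator of Polycomb-marked genes, and Zfp296 and Sall4 are zinc finger proteins that bind the NuRD remodelling complex. Lin28a binds let-7 precursors and blocks their maturation, Tcl1 is a coactivator of the AKT kinases, and Fbxo15 is an F-box protein, the substrate-binding kind of subunit in SCF ubiquitin ligases. Several of them, Fbxo15 and Utf1 among them, are known as reporters of reprogramming to pluripotency.

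Of the 9 genes tested, 6 fell in the labelled knockdown libraries against control (Dppa2, Dppa5a, Utf1, Zfp296, Sall4 and Lin28a), 1 rose (Fbxo15), and Dppa4 and Tcl1 did not pass the test. The falls ran from 1.76-fold for Zfp296 to 4.23-fold for Lin28a and 4.34-fold for Utf1, the last 2 being within 1 SE of each other. Calls are at an adjusted p of at most 0.05 in the quasi-likelihood F test of edgeR, in 1 fit over the 6 J1 libraries with Benjamini-Hochberg adjustment over 14462 genes. Among all genes tested, 17.9% were lower, 11.0% were higher and 28.9% were called either way. The median log2 fold change was -0.87 over the 9 genes and -0.08 over all genes tested. Of the genes called, 38.0% were higher, a split that moved to 49.0% without TMM scaling, 48.2% at a mean of at least 5 CPM and 54.4% when GC content and length were corrected for, with the median of all genes then at 0.14. The libraries of the 2 groups did not overlap for 8 of the 9 genes, against 62.3% of all genes. The summed level of the 10 genes was 3379 and 3309 CPM in the control libraries and 1445 and 1393 CPM in the labelled knockdown libraries. Utf1 alone made up 1447 and 1400 CPM of the control sums and 346 and 385 CPM of the labelled knockdown sums. In bulk libraries, fewer cells with a transcript and less of it per cell cannot be told apart. Leaving out control replicate 1, or control replicate 2, left 4 of the 9 genes called, all lower.

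Against the labelled knockdown libraries, 8 of the 9 genes rose in the labelled Ccnb1 libraries and 1, Dppa4, fell. The rises ran from 1.86-fold for Utf1 to 3.02-fold for Dppa5a. Of all genes tested, 22.8% were higher, 16.0% lower and 38.8% called either way. The median log2 fold change was 1.23 over the 9 genes and 0.14 over all genes. The libraries did not overlap for 9 of the 9 genes and for 70.5% of all genes. Of the genes called, 58.7% were higher, and 40.8% when GC content and length were corrected for, with the median of all genes then at -0.22. Under each of the 16 alternatives 7 or 8 of these genes stayed called higher.

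Against control, the labelled Ccnb1 libraries had 2 of the 9 genes higher (Fbxo15 and Sall4), 1 lower (Utf1), and 6 that did not pass the test. Of all genes, 9.35% were higher, 10.5% lower and 19.8% called either way. The median log2 fold change was 0.22 over the 9 genes and 0.07 over all genes. The libraries of these 2 groups did not overlap for 9 of the 9 genes, against 79.0% of all genes. The count rests on the labelled knockdown libraries, which are no part of the comparison but share its estimate of spread: without either of them 9 of the genes were called. Fitted on the 2 groups alone, 8 were called, and without any 1 of the control or labelled Ccnb1 libraries 2 were. In the first 2 comparisons the labelled knockdown libraries share the smaller spread of the other groups, so the SE and adjusted p there may be too small. Fitted on their 2 groups alone, calls over all genes went from 4184 to 1760 and from 5616 to 3994. The 3 comparisons share groups of libraries, so their values for a gene are not independent of each other.

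**Figure D1:**
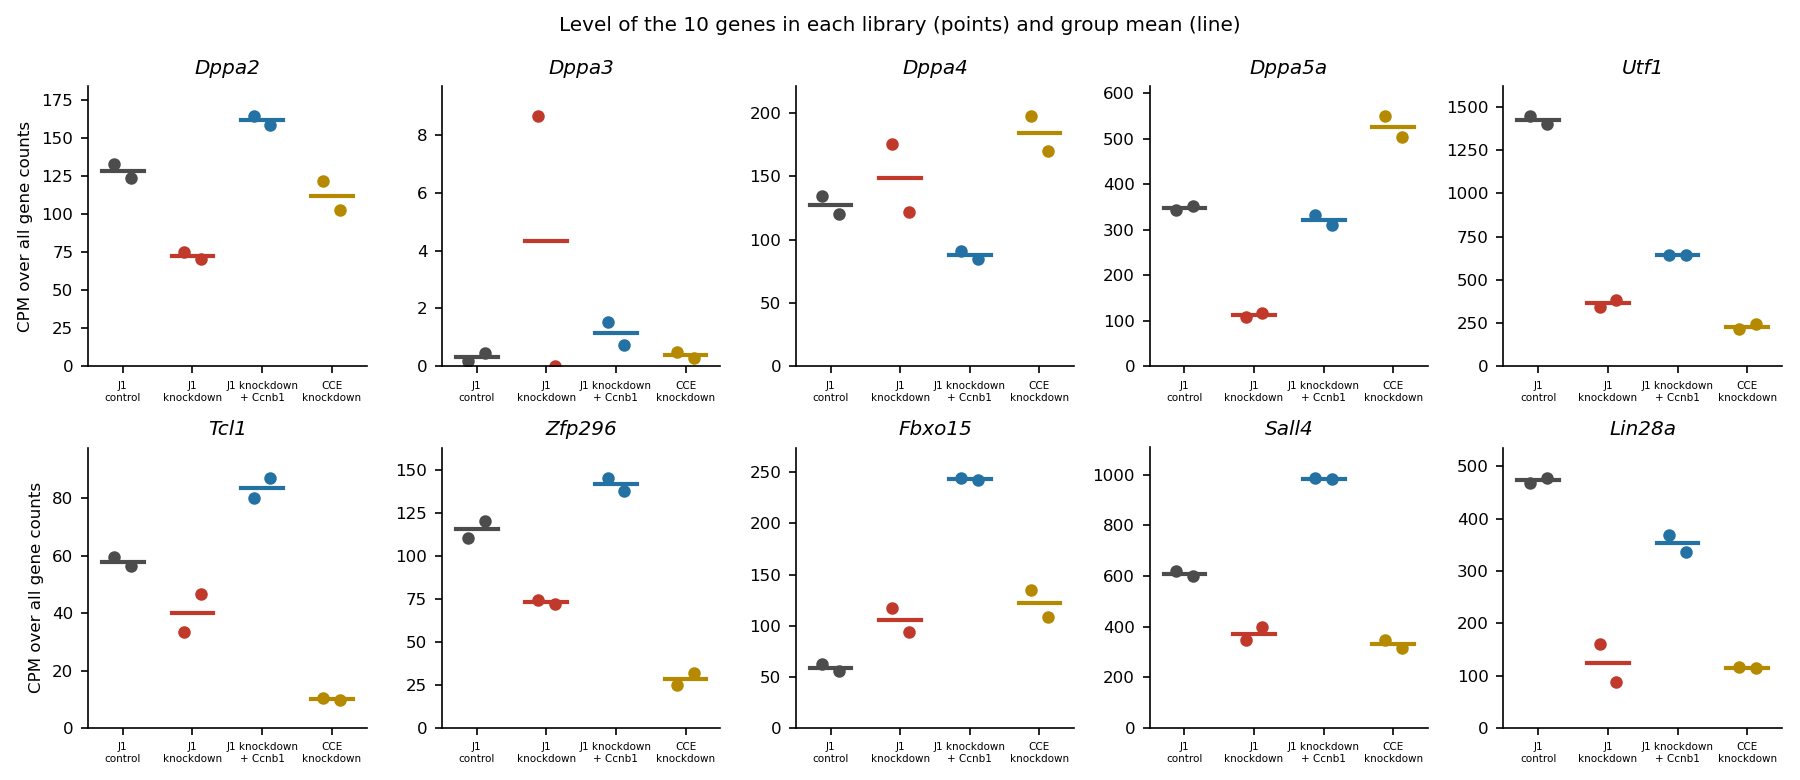
Level of each of the 10 genes in CPM over all gene counts (vertical axes, each from 0), by group as labelled; points are single libraries and lines the means of 2. The labelled knockdown points lie below both other J1 groups for Dppa2, Dppa5a, Utf1, Tcl1, Zfp296, Sall4 and Lin28a, Fbxo15 rises from control to labelled knockdown to labelled Ccnb1, and Dppa4 is lowest in the labelled Ccnb1 libraries.

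**Figure D2:**
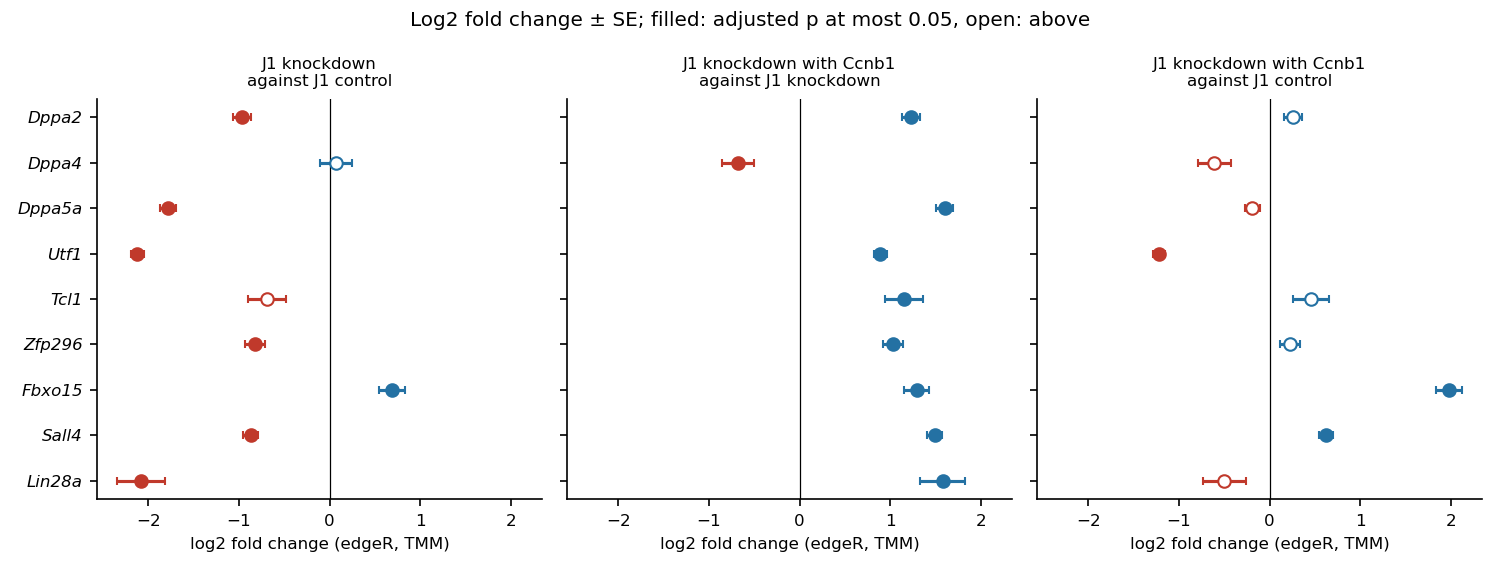
Log2 fold change (horizontal axis) of the 9 tested genes in the 3 J1 comparisons, as labelled, with the approximate standard error from the edgeR fit as bars. Filled points passed the test at an adjusted p of at most 0.05 and open points did not; 7, 9 and 3 points are filled from left to right.

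Dppa2 (ENSMUSG00000072419, chromosome 16) was at 133 and 124 CPM in the control libraries, 75.3 and 70.6 CPM in the labelled knockdown libraries, 165 and 159 CPM in the labelled Ccnb1 libraries and 122 and 103 CPM in CCE. The J1 groups did not overlap, and the labelled Ccnb1 libraries stood highest. It fell by 0.97 on the log2 scale (SE 0.10, edgeR adjusted p = 0.00251) and was higher by 1.23 (SE 0.10, adjusted p = 0.000779) with the Ccnb1 label. Against control the labelled Ccnb1 libraries did not pass the test (log2 0.26, SE 0.10, adjusted p = 0.127). With an offset for GC content and length the rise with the Ccnb1 label was 0.66, still called.

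Dppa4 (ENSMUSG00000058550), which lies on the same chromosome and strand as Dppa2, had another pattern. Its level was 135 and 121 CPM in the control libraries, 175.5 and 122 CPM in the labelled knockdown libraries, 91.5 and 84.9 CPM in the labelled Ccnb1 libraries and 198 and 170.3 CPM in CCE. The labelled knockdown libraries differed 1.44-fold from each other and overlapped control. The difference between those groups did not pass the test (log2 0.07, SE 0.18, adjusted p = 0.825), and its sign turned without 1 control library (-0.04) or 1 labelled knockdown library (-0.24). Without the other labelled knockdown library, replicate 2, it was called higher (0.28, adjusted p = 0.0145). Dppa4 fell with the Ccnb1 label by 0.68 (SE 0.18, adjusted p = 0.0341). That call was lost without any 1 of the control or labelled Ccnb1 libraries (adjusted p 0.117 to 0.245) and when the fit held those 2 groups alone (0.0838). It was the only gene of the 9 called lower in this comparison. Against control the labelled Ccnb1 libraries did not pass in the reported edgeR fit (-0.61, SE 0.18, adjusted p = 0.0715) and passed with DESeq2 (-0.60, adjusted p = 0.0078). They also passed in edgeR fitted on those 2 groups alone (-0.66, adjusted p = 1.73e-07) and with counts divided by the spread (-0.58, adjusted p = 1.53e-10). Of the 16 alternatives, 11 left this difference uncalled.

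The count of Dppa2 over the count of Dppa4 within a library, the ratio of the 2 partners, showed this split. It was 0.986 and 1.03 in control, 0.429 and 0.579 in the labelled knockdown libraries, and 1.80 and 1.87 in the labelled Ccnb1 libraries. The 3 J1 groups did not overlap in it, and both labelled Ccnb1 libraries stood above control. In CCE it was 0.617 and 0.603. Scaling between libraries does not enter this ratio, but reads on gene copies and gene length do. The exons of Dppa2 span 2447 bases and those of Dppa4 1662, so the ratio shows differences between groups and not which gene was higher. Per kilobase, Dppa2 was at 52.5 CPM and Dppa4 at 76.9 CPM in control. They were at 29.8 and 89.5 CPM per kilobase in the labelled knockdown libraries, and at 66.15 and 53.05 with the Ccnb1 label.

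Dppa2, Dppa4, Dppa5a and Dppa3 have processed pseudogenes, intronless copies of their transcripts, that take reads of their own in these tables. Gm9788 matches the Dppa2 transcript at 99.3% identity over 906 bases, and Gm14058 matches Dppa4 at 99.4% over 532 bases. Copies held 17.7% and 18.7% of the summed Dppa2 counts in control, 11.3% and 32.6% in the labelled knockdown libraries, 37.6% and 42.0% in the labelled Ccnb1 libraries, and 0.307% and 0.228% in CCE. The share was thus highest with the Ccnb1 label and near 0 in CCE. For Dppa4 it was 24.8% to 48.5% in J1 and 2.11% and 2.14% in CCE. For Dppa5a, whose main copies here were Gm6083 and Gm6798, it was 25.0% to 47.8% in J1 and 0.0985% and 0.139% in CCE. All processed pseudogenes together held 7.20% to 9.09% of gene counts in J1 and 0.23% and 0.22% in CCE. Because no control of the CCE line was analysed here, levels of the 2 lines are given side by side with no test. The differing pseudogene share is a further limit on setting them beside each other.

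Whether a read came from a gene or its copy cannot be told from these counts, and the levels of these 4 genes are uncertain at least to that extent. Reads of low alignment quality, 20.65% to 33.7% of all reads in J1 and 0% in CCE, are in neither count. How many of them belong to these genes was not tested. With copies added to their genes, Dppa2 stood at 162 and 153 CPM in the control libraries, 84.8 and 105 CPM in the labelled knockdown libraries and 264 and 274 CPM in the labelled Ccnb1 libraries. On these sums the labelled Ccnb1 libraries were higher than control (log2 0.70, adjusted p = 0.0145). Dppa4 with its copies was called lower with the Ccnb1 label at a smaller size (-0.32 against -0.68). Dppa5a with copies was lower in the labelled Ccnb1 libraries than in control (-0.35, adjusted p = 0.0486). The ratio of Dppa2 to Dppa4 kept its order over the J1 groups, at 0.778 and 0.806 in control, 0.364 and 0.499 in the labelled knockdown libraries and 1.54 and 1.66 in the labelled Ccnb1 libraries.

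**Figure D3:**
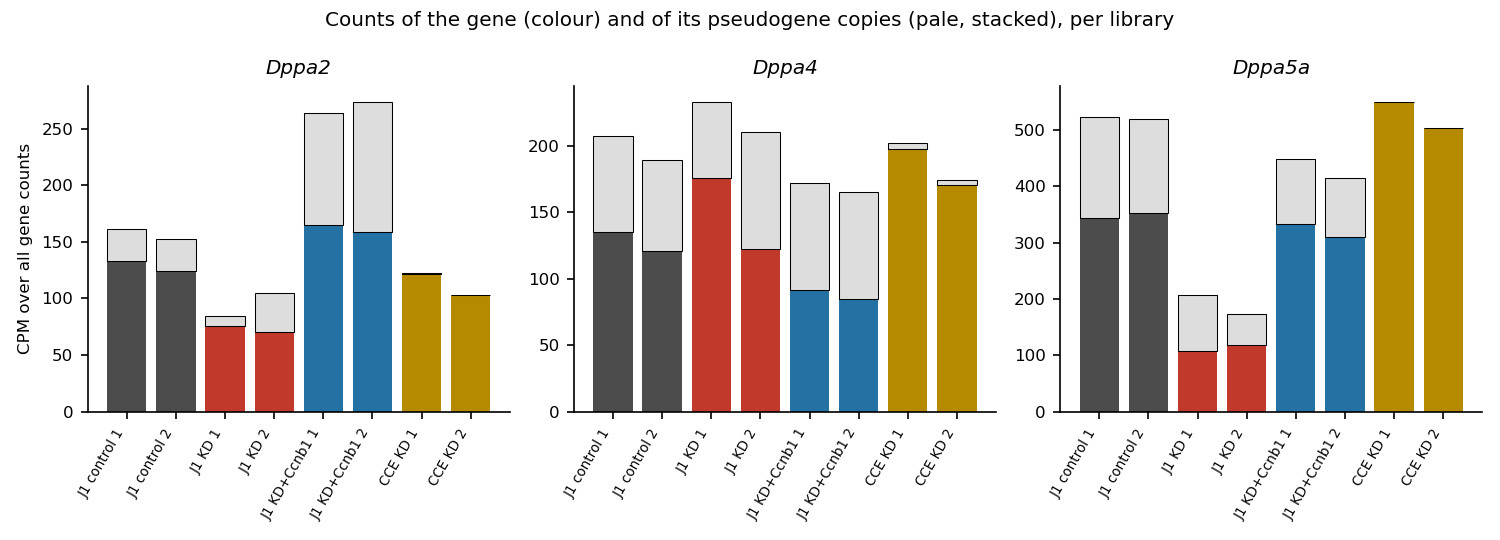
Level of Dppa2, Dppa4 and Dppa5a (coloured) with the level of their pseudogene copies stacked on top (pale), in CPM over all gene counts (vertical axes from 0), for each of the 8 libraries as labelled. The pale part is largest for Dppa2 in the 2 labelled Ccnb1 libraries, at 37.6% and 42.0% of the bar, and almost absent in CCE.

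Dppa5a (ENSMUSG00000060461, chromosome 9) was at 345 and 352 CPM in the control libraries, 108 and 118 CPM in the labelled knockdown libraries, 334 and 311 CPM in the labelled Ccnb1 libraries and 550.4 and 504 CPM in CCE. The labelled knockdown libraries lay far below both other J1 groups. It fell by 1.78 on the log2 scale (SE 0.09, adjusted p = 0.000376) and was higher by 1.60 (SE 0.09, adjusted p = 0.00025) with the Ccnb1 label, with no call lost under any alternative. The fall was 1.07 when GC content and length were corrected for. Against control the labelled Ccnb1 libraries did not pass the test (-0.19, SE 0.08, adjusted p = 0.177), and the sign turned once GC content and length entered the fit (0.14).

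Dppa3 (ENSMUSG00000046323) was close to undetected. It had 1 and 4 counts in control, 38 and 0 in the labelled knockdown libraries, 9 and 5 in the labelled Ccnb1 libraries and 12 and 7 in CCE, which was 0 to 8.64 CPM. By counting noise alone, the 0 in labelled knockdown replicate 2 allows up to 3 counts, or 0.834 CPM. The spread between the labelled knockdown libraries is wider than that noise, so this limit is too low. With the spread between labelled knockdown libraries at 22.0 times counting noise, their 38 counts stand for 1.73 counts without it. That spread was measured on genes with more than 60 summed counts, which Dppa3 did not reach, so the 1.73 is only a rough figure. Its copy Dppa3-ps had 23 counts in that same library and 0 in the other. Dppa3 was left out of the tests by the filter. Without labelled knockdown replicate 2 it entered them and was called higher than control and lower with the Ccnb1 label, calls that rest on the 1 library with 38 counts.

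Utf1 (ENSMUSG00000047751, chromosome 7) had the highest level per kilobase of the 10 genes in control, 1160 ± 27.3 CPM per kilobase (SD, n = 2). Its level was 1447 and 1400 CPM in the control libraries, 346 and 385 CPM in the labelled knockdown libraries, 642 and 642 CPM in the labelled Ccnb1 libraries, and 218 and 242 CPM in CCE. All 3 J1 groups stood apart, with the labelled Ccnb1 libraries between the others. It fell by 2.12 (SE 0.07, adjusted p = 0.000202), was higher with the Ccnb1 label by 0.89 (SE 0.07, adjusted p = 0.000649), and remained below control (log2 -1.22, SE 0.07, adjusted p = 0.000708). No alternative took away any of these 3 calls, although the difference from control was -0.61 when GC content and length were corrected for. No pseudogene copy of Utf1 was found.

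The 250 bases before the start of Utf1 and of Zfp296 are shown because these are the promoters, among the 4 of the 10 genes for which the RefSeq table (GRCm38.p6) holds one, with the most matches to the motifs searched. The motifs were the octamer ATGCAAAT, read by the Pou5f1 family of factors, the GC box GGGCGG and the E-box CACGTG, each on both strands. Capitals mark matches, and the lines read 5′ to 3′ on the strand of the gene.
Utf1, chr7:139943606-139943855, + strand: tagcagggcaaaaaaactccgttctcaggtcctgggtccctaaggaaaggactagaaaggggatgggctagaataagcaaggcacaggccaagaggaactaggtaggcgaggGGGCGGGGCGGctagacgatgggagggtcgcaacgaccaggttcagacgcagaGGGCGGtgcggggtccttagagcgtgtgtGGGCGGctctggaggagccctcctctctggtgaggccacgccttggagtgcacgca
Zfp296, chr7:19577037-19577286, + strand: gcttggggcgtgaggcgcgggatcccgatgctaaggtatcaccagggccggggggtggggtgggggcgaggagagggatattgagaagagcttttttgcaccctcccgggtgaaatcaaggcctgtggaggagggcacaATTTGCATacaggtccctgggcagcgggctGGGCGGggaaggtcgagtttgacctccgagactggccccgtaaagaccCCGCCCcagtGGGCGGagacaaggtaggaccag
Zfp296 holds 1 octamer, read on the other strand and starting 111 bases before the gene's start, and 3 GC boxes. Utf1 holds 4 GC boxes, of which the first 2 overlap by 1 base, and no octamer in this window. Of 32851 promoters of the same length, 1.60% held the octamer, 32.7% a GC box and 6.02% an E-box. Tcl1 had 2 GC boxes, Lin28a had none of the 3 motifs, and no E-box was found in any of the 4. A match is a run of letters and not a bound site.

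Zfp296 (ENSMUSG00000011267, chromosome 7), a zinc finger protein known to aid reprogramming, was at 110.3 and 121 CPM in the control libraries and 74.1 and 72.0 CPM in the labelled knockdown libraries. It was at 146 and 138 CPM in the labelled Ccnb1 libraries and at 25.1 and 31.7 CPM in CCE. No J1 groups overlapped. It fell by 0.82 (SE 0.11, adjusted p = 0.00541), a call lost without control replicate 1 (adjusted p = 0.0510) or 2 (0.0687). It was higher by 1.03 (SE 0.11, adjusted p = 0.00168) with the Ccnb1 label under every alternative run. The labelled Ccnb1 libraries did not pass the test against control (0.22, adjusted p = 0.220) but did when GC content and length were corrected for (0.73, adjusted p = 0.0111).

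Sall4 (ENSMUSG00000027547, chromosome 2), which sustains Pou5f1 transcription, was at 619 and 600.2 CPM in the control libraries, 346 and 397 CPM in the labelled knockdown libraries, 988 and 981 CPM in the labelled Ccnb1 libraries and 346 and 317 CPM in CCE. The labelled Ccnb1 libraries stood highest and the labelled knockdown libraries lowest in J1, with no overlap. It fell by 0.87 (SE 0.08, adjusted p = 0.00182) and was higher by 1.49 (SE 0.08, adjusted p = 0.000251) with the Ccnb1 label, both under every alternative. Sall4 was also higher in the labelled Ccnb1 libraries than in control (0.62, SE 0.08, adjusted p = 0.00595), a call lost without any 1 of those 4 libraries (adjusted p 0.0755 to 0.0944). Sall4, Zfp296 and Lin28a each overlap an annotated gene on the opposite strand, by 526, 263 and 234 bases, and strand handling is not given in the sources used here.

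Lin28a (ENSMUSG00000050966, chromosome 4) was at 468 and 478 CPM in the control libraries, 160.3 and 88.4 CPM in the labelled knockdown libraries, 369 and 336 CPM in the labelled Ccnb1 libraries and 116 and 114 CPM in CCE. The labelled knockdown libraries differed 1.81-fold, the widest of the 9 genes, yet both lay below every other J1 library. It fell by 2.08 (SE 0.26, adjusted p = 0.00408), a call just lost without control replicate 1 (adjusted p = 0.0561) or 2 (0.0595). It was higher by 1.58 (SE 0.25, adjusted p = 0.00658) with the Ccnb1 label. Against control that group did not pass the test (-0.50, SE 0.24, adjusted p = 0.217).

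Tcl1 (ENSMUSG00000041359, chromosome 12) was at 59.6 and 56.5 CPM in the control libraries, 33.4 and 46.7 CPM in the labelled knockdown libraries, 80.2 and 87.3 CPM in the labelled Ccnb1 libraries and 10.6 and 9.58 CPM in CCE. The J1 groups did not overlap, though the labelled knockdown libraries differed 1.40-fold from each other. The first difference did not pass edgeR's test (-0.69, SE 0.21, adjusted p = 0.0551) and passed with DESeq2 (-0.64, adjusted p = 0.0136). Tcl1 was higher with the Ccnb1 label (1.15, SE 0.21, adjusted p = 0.00973), a call lost without either labelled Ccnb1 library, each left out in turn (adjusted p = 0.0672 and 0.0873). Its paralogs Tcl1b1, Tcl1b3, Tcl1b4 and Tcl1b5 had no count in any of the 8 libraries.

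Fbxo15 (ENSMUSG00000034391) was the only one of the 9 genes to rise in both steps. It was at 62.4 and 55.4 CPM in the control libraries, 118 and 93.4 CPM in the labelled knockdown libraries, 245 and 243 CPM in the labelled Ccnb1 libraries and 135 and 109 CPM in CCE. The J1 groups formed an order without overlap. Against control it was higher by 0.69 in the labelled knockdown libraries (SE 0.14, adjusted p = 0.0178), a call lost without any 1 control or labelled Ccnb1 library (adjusted p 0.0912 to 0.164) or when the fit held those 2 groups alone (0.0741). It was higher by 1.29 (SE 0.14, adjusted p = 0.00161) with the Ccnb1 label, by 0.71 when GC content and length were corrected for, and by 1.98 over control (SE 0.14, adjusted p = 0.0011). Both of these held under every alternative.

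The profiles of the 9 genes over the 6 J1 libraries were compared with those of 10520 genes that averaged 5 CPM or more, by the root mean square distance of centred log2 levels. This is a description of 6 libraries in 3 groups. Nearest to Dppa2 were Xpot (0.045), Ubqln1 (0.054) and Lamc1 (0.058), and nearest to Dppa4 were Ube3b (0.066), Gcat (0.081) and Usp4 (0.081). Dppa5a was nearest to Uxs1 (0.055), Marcksl1 (0.061) and Mycn (0.081). Utf1 was nearest to Foxd3 (0.087), a transcription factor of ES cells and neural crest, then Ppil1 and Tuba1b (both 0.098). Tmpo (0.052) and Rnmt (0.056) were among the 3 genes nearest to Zfp296, and those nearest to Sall4 were Pank2 (0.040), Calu (0.046) and Zcchc9 (0.050). Tcl1 had Sfpq (0.061), Nes (0.065) and Mrps2 (0.080), and Lin28a had Samhd1 (0.109), Coa6 (0.133) and Calm3 (0.137). Fbxo15 had the most distant neighbours, Ccng2 (0.145), Epm2aip1 (0.155) and Abhd2 (0.157). Among the 9 genes themselves, Dppa2 and Zfp296 were nearest each other (0.107), as were Sall4 and Tcl1 (0.170) and Dppa5a and Lin28a (0.323). Many of the 10520 genes lay nearer. Zfp296 ranked 40 by nearness to Dppa2, and Dppa2 ranked 37 to Zfp296. Tcl1 ranked 122 to Sall4 and Sall4 153 to Tcl1. Lin28a ranked 311 to Dppa5a and Dppa5a 85 to Lin28a. Dppa4 and Fbxo15 stood far from the rest, each at 0.695 from its nearest, and Utf1 lay 0.431 from Dppa5a.

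Per kilobase of exon, the order of the genes changed between groups. In control, Utf1 (1160 CPM per kilobase) was followed by Dppa5a (563), Lin28a (118) and Sall4 (110.1), and Zfp296 and Dppa2 (56.7 and 52.5) overlapped. In the labelled knockdown libraries Lin28a stood at 31.1 CPM per kilobase, with its libraries at 40.1 and 22.1. That range held both libraries of Fbxo15 (mean 31.4), Dppa2 (29.8) and Zfp296 (35.9), and overlapped Tcl1 (21.7). With the Ccnb1 label Utf1 (523) and Dppa5a (521) could not be ordered. In CCE Dppa5a led at 852 CPM per kilobase, ahead of Utf1 at 188 and Dppa4 at 111. Tcl1 and Zfp296 were low there, at 5.47 and 13.9 CPM per kilobase. Dppa3 was last in every group.

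Lists of related genes were counted in the same fit. Some genes stand in more than 1 list, so the counts of different lists are not separate results. Their counts stand beside shares of all genes of 17.9% lower and 11.0% higher for labelled knockdown against control, 22.8% higher and 16.0% lower for labelled Ccnb1 against labelled knockdown, and 9.35% higher and 10.5% lower for labelled Ccnb1 against control. Ranges are over the 16 alternatives. Of 27 other ES-restricted genes tested, 20 were lower and 2 higher in the labelled knockdown libraries than in control, 23 higher and 2 lower with the Ccnb1 label than without, and 10 higher and 5 lower in the labelled Ccnb1 libraries than in control. Their median log2 fold changes were -1.15, 1.22 and 0.08. The ranges were 13 to 22 lower in the first comparison, 17 to 25 higher in the second, and 2 to 14 higher and 1 to 10 lower in the third. Pou5f1 fell by 1.14 (SE 0.04, adjusted p = 0.000229) and rose by only 0.26 (SE 0.04, adjusted p = 0.00593), staying below control (-0.88, adjusted p = 0.000473). Klf4 fell by 1.54 and was then higher by 2.20, and ended above control (0.66, adjusted p = 0.00305), a call lost without either control library or labelled Ccnb1 replicate 2. Trim71, a known let-7 target, was at 39.7 and 32.9 CPM in the control libraries and 397 and 375 CPM in the labelled Ccnb1 libraries (log2 3.34, adjusted p = 0.000351). Of the 16 tested candidates of the original reprogramming screen that are not among the 10 genes, 12 were lower and 1 higher, then 11 higher and 1 lower. Their median log2 fold changes were -1.16 and 1.08. Nanog, Eras, Dnmt3l, Gdf3, Pou5f1, Sox2, Zfp42 and Klf4 are in these counts and in those of the ES-restricted genes, both times. The 12 became 7 without either control library, and the 11 became 6 without either labelled Ccnb1 library. Against control, 4 were higher and 3 lower in the labelled Ccnb1 libraries (0 to 5 and 1 to 6).

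Of 8 genes tested that are known to need Dppa2 and Dppa4, 3 were higher in the labelled knockdown libraries than in control (Zscan4c, Zscan4d and Syce1) and none lower, beside all-gene shares of 11.0% and 17.9%. The count higher was 7 without labelled knockdown replicate 1 and 2 without either control library. With the Ccnb1 label 2 were higher and 1 lower (1 to 5 and 0 to 2), beside 22.8% and 16.0%, and against control 3 were higher (2 to 5). Over the first 2 comparisons Dppa2 itself fell and then rose, while Dppa4 did not pass the test and then fell. Some of the 8, such as Zfp352, had no count in control, so no median is given. Zscan4d, of the 2-cell embryo, was at 1.22 and 1.92 CPM in the control libraries, 22.7 and 20.6 CPM in the labelled knockdown libraries and 164 and 163 CPM in the labelled Ccnb1 libraries. It was higher by 3.57 (SE 0.24, adjusted p = 0.000725) and then by 2.99 (SE 0.19, adjusted p = 0.000368). Zscan4c was higher by 4.22 (SE 0.39, adjusted p = 0.0018) and then by 1.88 (SE 0.31, adjusted p = 0.00697), the second call lost without either labelled Ccnb1 library. Syce1, a synaptonemal complex protein, was higher (1.41) and then lower (-1.26), the first call lost under 5 of the 16 alternatives and the second without either labelled Ccnb1 library. Zscan4 genes are near-identical copies of each other, so reads can be split between them.

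Of 10 genes tested of UHRF1, which Dppa3 binds, its paralog and the enzymes of DNA methylation and its removal, 6 were lower and none higher in the labelled knockdown libraries (4 to 7 lower), beside 17.9% and 11.0% of all genes. With the Ccnb1 label 8 were higher and none lower, beside 22.8% and 16.0%, and that count was 5 without labelled Ccnb1 replicate 1 and 3 without replicate 2. The reported median log2 fold change was 1.01, and it was 0.63 when GC content and length were corrected for. Against control 3 were higher and 3 lower in the labelled Ccnb1 libraries (2 to 5 and 0 to 4). Tet2 and Uhrf2 were not among the lower genes, at 308 and 324 CPM and 44.9 and 43.3 CPM in the control libraries and 338 and 338 CPM and 81.9 and 53.9 CPM in the labelled knockdown libraries. Uhrf1 fell by 1.03 (SE 0.15, adjusted p = 0.00743) and was higher by 0.80 (SE 0.15, adjusted p = 0.0118), calls lost without either control library and without either labelled Ccnb1 library. Dnmt3b, a de novo methyltransferase, fell by 2.05 (SE 0.18, adjusted p = 0.00154). Tet1, a demethylating oxidase, was at 191 and 191 CPM in the control libraries, 143 and 152 CPM in the labelled knockdown libraries and 1077 and 1084 CPM in the labelled Ccnb1 libraries.

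Of 13 genes tested of NuRD, which Sall4 and Zfp296 bind, 7 were lower in the labelled knockdown libraries and none higher (3 to 11 lower), beside 17.9% and 11.0% of all genes, at a median log2 fold change of -0.78. With the Ccnb1 label 6 were higher and 2 lower, beside 22.8% and 16.0%, at a median of 0.55. There 2 were higher without either control library or labelled Ccnb1 replicate 1, 1 was without labelled Ccnb1 replicate 2, and 3 were higher and 3 lower (median 0.18) when GC content and length were corrected for. Mbd3, a core NuRD subunit, was lower in both steps (-1.20, adjusted p = 0.000669, then -0.54, adjusted p = 0.00454), the second call lost without either labelled Ccnb1 library and when GC content and length were corrected for. Of 12 genes of the Polycomb complex PRC2, 4 were lower and none higher in the first comparison (median -0.35), and 1 to 9 were lower when 1 library was left out. In the second, 5 were higher and 1, Epop, was lower (-0.78, adjusted p = 0.000245), at a median of 0.42. With GC content and length corrected for, 0 were higher and 2 lower there, and the median turned to -0.28. The PRC2 counts stand beside the same shares of all genes as those of NuRD. Sall1, a paralog of Sall4, fell by 1.21 (SE 0.06, adjusted p = 0.00042) and was higher by 1.29 (SE 0.06, adjusted p = 0.000186), while Sall2 and Sall3 did not pass either test.

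Around Lin28a, its paralog Lin28b was at 22.8 and 31.1 CPM in the control libraries, 5.23 and 3.62 CPM in the labelled knockdown libraries and 52.3 and 63.6 CPM in the labelled Ccnb1 libraries. It fell by 2.75 (SE 0.32, adjusted p = 0.00361) and was higher by 3.78 (SE 0.33, adjusted p = 0.000929). Tut7, which tails let-7 precursors, was higher in the labelled knockdown libraries (1.37, SE 0.13, adjusted p = 0.00207). Of 10 genes of the LIN28 and let-7 pathway tested, 2 were higher and 1 lower (median log2 fold change 0.00), beside 11.0% and 17.9% of all genes. Then 6 were higher and 2 lower (median 0.67), beside 22.8% and 16.0% of all genes. The second count was 3 higher without either labelled Ccnb1 library, and 3 higher and 4 lower (median 0.02) when GC content and length were corrected for. Of 14 known let-7 targets tested, 8 were lower and none higher in the labelled knockdown libraries, with a median log2 fold change of -1.68, beside 17.9% and 11.0% of all genes. That count was 4 without either control library and at most 11 without a labelled knockdown library. With the Ccnb1 label 7 were higher and 1 lower (6 to 13 higher). Igf2bp1 (-0.93, then 1.05) and Mycn (-1.71, then 1.50) were among them, with adjusted p from 0.000225 to 0.00104. MicroRNA levels were not measured in these tables.

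Around Tcl1, 9 genes of the family and of AKT signalling were tested, of which 2 were lower and 1 higher (median log2 fold change -0.39), then 3 higher (median 0.67). The shares of all genes were 17.9% lower and 11.0% higher, then 22.8% higher, and none of the 9 was called in the first comparison without either control library and 1 in the second without either labelled Ccnb1 library. Eras, an ES cell RAS protein upstream of AKT, fell by 1.86 (SE 0.25, adjusted p = 0.00564) and was higher by 1.43 (SE 0.25, adjusted p = 0.00908), calls lost without either control library and without either labelled Ccnb1 library. Around Fbxo15, 3 of 7 SCF genes were lower and 1 higher, then 2 higher and 3 lower, at medians of -1.02 and 0.36, beside the same shares. Without control replicate 2 none was lower in the first comparison, and the second median turned to -0.25 when GC content and length were corrected for. Skp2, the F-box protein of cell cycle inhibitors, fell by 1.82 and was higher by 2.07. Fbxw7, the F-box protein of MYC and cyclin E, was higher by 1.56 and then fell by 1.43 (adjusted p from 0.00151 to 0.00431 for these 4 values), and the fall of Skp2 was lost without control replicate 2 and the rise of Fbxw7 without either control library. Of the KH-domain relatives of Dppa5a, Ooep and Khdc3 were tested and neither passed in any of the 3 comparisons as reported (0 to 2 called over the alternatives), and Khdc1c had no count in any library.

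**Figure D4:**
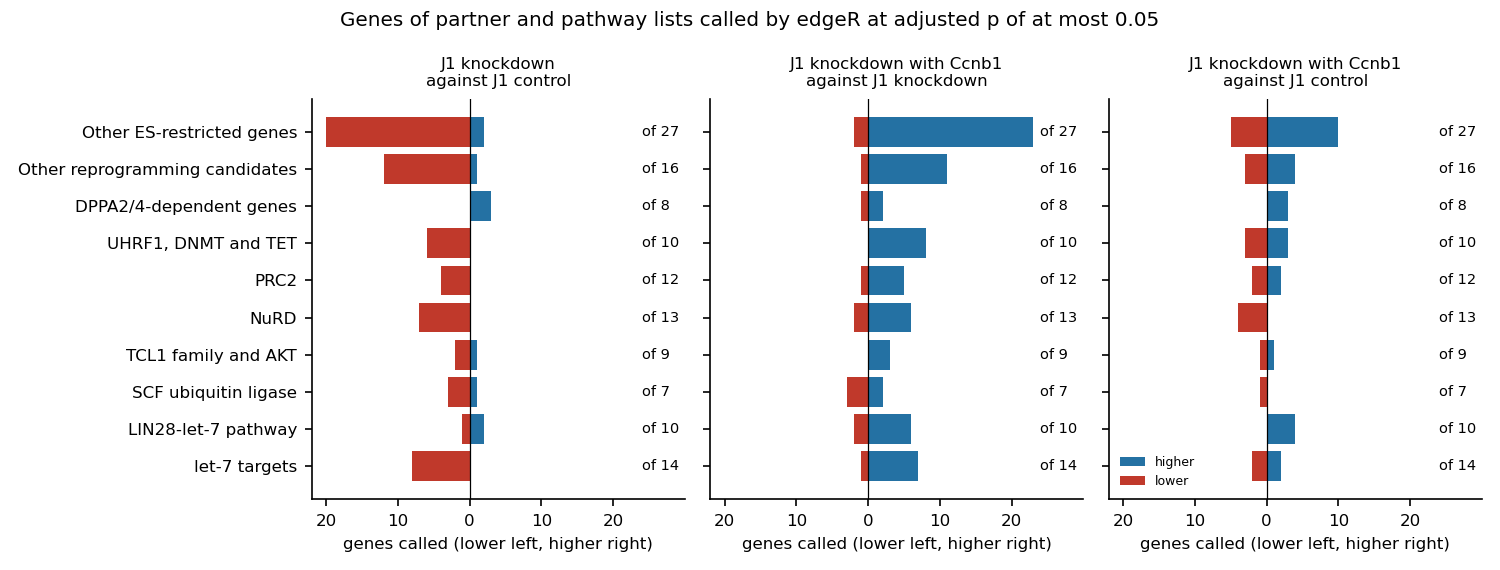
Number of genes of 10 related lists that were called higher (right, blue) or lower (left, red) by edgeR in each J1 comparison as labelled, with the number tested beside each bar. The other ES-restricted genes had 20 lower and 2 higher, then 23 higher and 2 lower; the genes known to depend on Dppa2 and Dppa4 had 3 higher and none lower in the first comparison.

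Markers of other cell types were measured beside these results. The summed level of 9 primitive endoderm markers was 114 and 107 CPM in the control libraries, 178 and 305 CPM in the labelled knockdown libraries, 422 and 428 CPM in the labelled Ccnb1 libraries and 434 and 719 CPM in CCE, with Sox7 and Foxa2 at 0 in both labelled knockdown libraries. Of these 9 genes, 2 were higher and 1 lower in the labelled knockdown libraries than in control, beside 11.0% and 17.9% of all genes. None was called there with the replicate block or without any 1 control or labelled Ccnb1 library. With the Ccnb1 label 3 were higher (0 to 7), beside 22.8%, and against control 3 were higher (0 to 9), beside 9.35%. The summed level of 10 fibroblast markers was 755 to 939 CPM in J1, most of it Fn1, and 1676 and 1506 CPM in CCE. Of 4 of these tested, Col1a1 was higher in the labelled knockdown libraries than in control (1.39 and 1.08 CPM in the control libraries, 14.3 and 17.2 CPM, adjusted p = 0.0121) and lower with the Ccnb1 label (log2 -2.36, adjusted p = 0.0249), both calls lost without any 1 control or labelled Ccnb1 library. The summed level of 8 trophectoderm markers was 36.8 to 77.3 CPM in J1 and 228 and 291 CPM in CCE. The share of unaligned reads was 15.65% to 15.89% in control and labelled Ccnb1 libraries and 40.81% and 45.17% in the labelled knockdown libraries. In CCE it was 0%. Reads of low alignment quality were 32.55% to 33.7% in control and labelled Ccnb1 libraries and 21.97% and 20.65% in the labelled knockdown libraries. In CCE they were 0%, and reads aligned at more than 1 place were 9.711% and 10.03% there against 0% in J1. Reads outside any annotated gene were 48.48% and 49.46% in CCE against 11.86% to 13.87% in J1. These shares are of all reads, unaligned and low-quality ones included. The last shares thus have unlike bases between J1 and CCE and within J1. Every CCE level above carries these differences from J1. The part of these in the levels of the 10 genes was not tested.

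**Figure D5:**
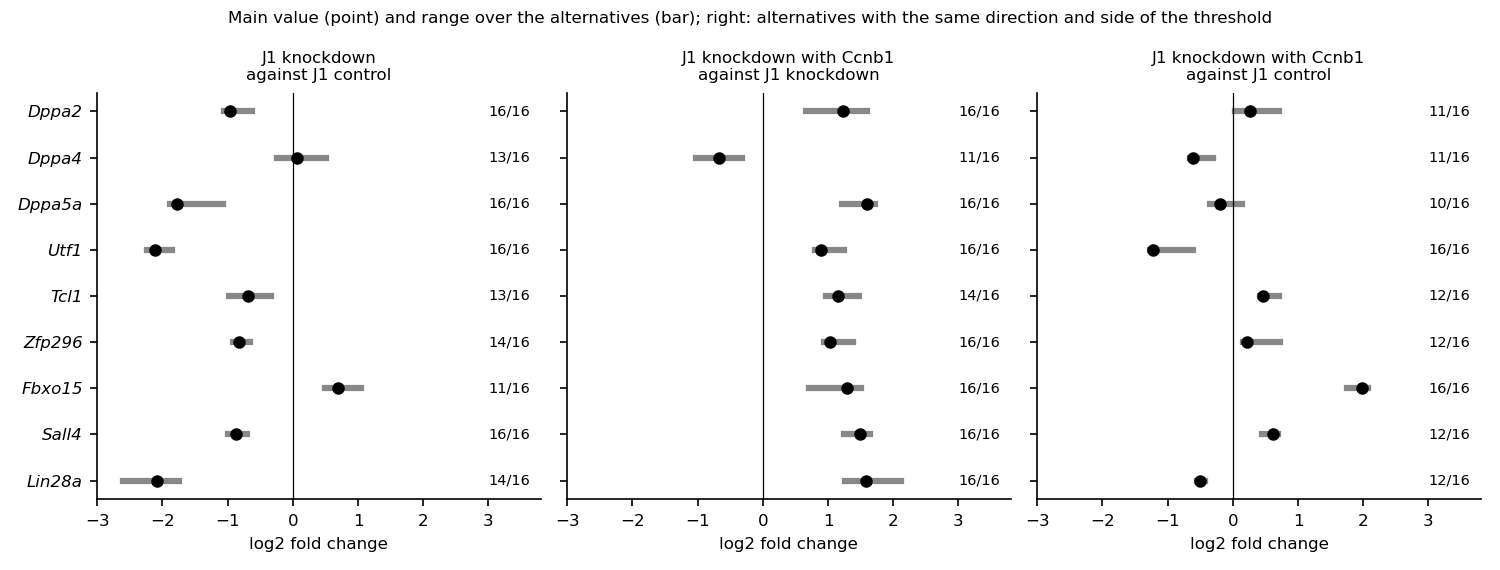
Log2 fold change (horizontal axis) of the 9 tested genes in the 3 J1 comparisons: the reported value (point) and the lowest to highest value over 16 alternative analyses (bar), with the number of alternatives that kept its direction and side of the threshold at the right. In the first 2 comparisons the bars of the called genes stay on 1 side of 0, and in the third, against control, Utf1 and Fbxo15 kept their calls in 16 of 16.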

How the data were processed

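RNA-seq read counts per Ensembl gene were deposited for 8 libraries of mouse ES cells. The authors' counts were made before deposit with tools that the submitters' processing notes list as Bowtie2 2.3.4.3, SAMtools 1.9, HTSeq 0.11.2 and edgeR 3.26.8 with build mm9; their roles and strand settings are not given in the sources used here. Rows that name no gene were left out of library sizes. Of 37310 identifiers, 32620 matched a symbol. Levels are CPM over all gene rows. The 6 J1 libraries were fitted once in edgeR 4.0.16 (R 4.3.3, TMM, filterByExpr, quasi-likelihood F test, two-sided, Benjamini-Hochberg over 14462 genes, threshold 0.05). The fit was also run on simulated counts with the same spread in every group. The J1 groups differ in spread, so that run does not test the calls given here. The SE is the fold change over the root of F. DESeq2 1.42.0 was an alternative, and 16 alternatives were run in all. Lengths come from GENCODE M21; copies were found with BLAST 2.17.0 at 90% identity or more over at least 200 bases. Likeness is the root mean square distance of centred log2(CPM + 2). The text names all 10 genes, the 3 genes nearest each in profile, and up to 4 genes of a list in a comparison, those of smallest adjusted p with a mean of at least 5 CPM; others named were chosen after their values were seen, and some genes under this rule are not reported here. The members and lists were chosen with earlier results of these data known.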

Additional observations from a re-analysis of the deposited data

How the results depend on the processing

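Over the 3 comparisons and 16 alternatives, the 9 tested genes gave 432 values, of which 378 kept their direction and side of the threshold, 20 lost the call, 31 gained one and 3 turned. Leaving out 1 library at a time gave 4 to 10 of the genes called for labelled knockdown against control, 7 to 10 for labelled Ccnb1 against labelled knockdown and 2 to 9 for labelled Ccnb1 against control. In that last comparison 8 were called with only the 2 groups in the fit, 9 with counts divided by the spread and 5 with copies added to their genes, an alternative chosen after seeing the data. Over all genes, reported as 4184, 5616 and 2865 calls, leaving out 1 library gave 701 to 10225, 1674 to 11078 and 254 to 8806. Only the 2 groups gave 1760 calls in the first comparison and 8658 in the last, where counts divided by the spread gave 8385 and DESeq2 4656.

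The replicate numbers did not pair the libraries (correlations of same-numbered deviations -0.00654, 0.0109 and -0.0238 over 11721 genes). The fit with the replicate block gave 2631, 4178 and 1968 calls over all genes and changed no call among the 9.

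The value of Dppa4 against control ran from -0.24 to 0.28 in the labelled knockdown libraries when 1 library was left out, and was -0.04 without control replicate 2. That of Dppa5a for labelled Ccnb1 against control was 0.14 when GC content and length were corrected for. Eif4a3 ran from -0.44 to 0.55 between the labelled knockdown groups, and Ccnb1 was -0.23 there under that correction and 0.01 against control without TMM. The share of calls that were higher was 38.0%, 58.7% and 47.2% as reported, and 54.4%, 40.8% and 32.0% under that correction. The cause of these changes was not tested. At the depth of the J1 libraries, 3 counts are 0.360 to 0.834 CPM.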
